A study of Mus musculus with 4 samples.

Results

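The transcription factors Otx2, Pou3f1, Zic1, Zic2, Zic4, Zic5, Foxd3 and Sall2 act in the epiblast and in the exit of embryonic stem cells (ESCs) from naive pluripotency, and their transcripts were followed here in mouse ESCs treated with MS-275. They were chosen by symbol, 8 genes of the 28250 listed for each library, and 7 of the 8 passed the filter on low values, Zic4 being the exception. RNA-seq was available for 4 libraries of TBV2 cells, a feeder-dependent mouse ESC line that was treated in the presence of LIF. Replicates 1 and 2 of the control had received solvent for 24 h, and replicates 1 and 2 of the treatment had received MS-275, an inhibitor of class I histone deacetylases, at 5 µM for 24 h. No source used here says whether the replicates were separate cultures. The p-values thus rest on the spread between these libraries, pooled in part over all genes, and that spread may be technical. The authors deposited a normalized expression value per gene, made with Genomatix, and the aligned reads, and the formula of the value is not given in the sources used here.

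ESCs kept with LIF sit in a naive state, resembling the epiblast before implantation, and go through a formative state to the primed state of the epiblast after implantation, from which the germ layers arise. Otx2, a homeodomain factor, and Pou3f1, a POU factor also called Oct6, are known to work with Pou5f1 at enhancers that open during this transition, and both later act in the neural plate. The zinc finger factors of the Zic family are used in the epiblast and in the dorsal neural tube, Foxd3 is a forkhead factor of the epiblast and of neural crest, and Sall2 is a zinc finger factor of the spalt family.

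Markers of the labelled cell type were present in every library, with values of Pou5f1 (0.575 to 2.33), Sox2 (0.879 to 3.35), Nanog (0.659 to 3.08), Zfp42 (0.520 to 2.18) and Esrrb (0.289 to 1.32). The deposited alignments, each 35 bases long, numbered from 9785619 to 23467935 per library, and the distinct positions they covered from 9122347 to 10973569. Distinct positions on the exons of Nanog and Sox2 differed far less between replicate numbers than their values. For Nanog they numbered 1573 and 1598 in solvent replicates 1 and 2, and 1221 and 1408 in MS-275 replicates 1 and 2. For Sox2 they numbered 2106 and 2096 with solvent, and 1651 and 2169 with MS-275. The value files and the alignments of a library did not match in every respect. The mitochondrial gene ND5 had a value of 1.59 in solvent replicate 1 and of 1.41 in MS-275 replicate 1 and was listed at 0 in both libraries of replicate 2, while the alignments deposited with replicate 1 held 0 on the mitochondrial chromosome and those deposited with replicate 2 held 13431 and 13889. Replicate numbers below are therefore those of the file that a number comes from, and an exchange of replicates 1 and 2 in both conditions would change neither group means nor differences within replicate pairs.

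MS-275 was compared with solvent to ask how these regulators responded to the inhibitor. Otx2, Zic2, Zic5 and Foxd3 were lower with MS-275 in both replicate pairs, by between 1.89-fold and 7.81-fold, and Pou3f1 was higher in both, by 2.58-fold and 5.66-fold. Zic1 was higher in both pairs at a level near the filter, Zic4 was close to 0 in every library, and Sall2 moved in opposite directions in the pairs. In limma's moderated test without a replicate block, 0 of the 7 members tested were called higher and 0 lower at an adjusted p of 0.05, where 0.00492% of all 20336 genes passed as higher and 0.00% as lower. At an unadjusted p under 0.05, 1 member was higher (Pou3f1) and 4 were lower (Otx2, Zic2, Zic5 and Foxd3), against 14.6% and 2.77% of all genes. With the replicate as a block, the same test called 1 member higher (Pou3f1) and 4 lower (Otx2, Zic2, Zic5 and Foxd3), against 21.0% of all genes higher and 6.46% lower. The pairing rests on the authors' column headers, which mark replicate 1 of both conditions as old. The fit without the block was the main test of the plan, and the fit with the block was an alternative. With the block, the 4 libraries leave 1 residual degree of freedom per gene. Its p-values therefore rest largely on the variance that limma pools over all genes, not on a gene's own spread. "Rose" and "fell" are used below for what passed in that alternative.

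**Figure D1:**
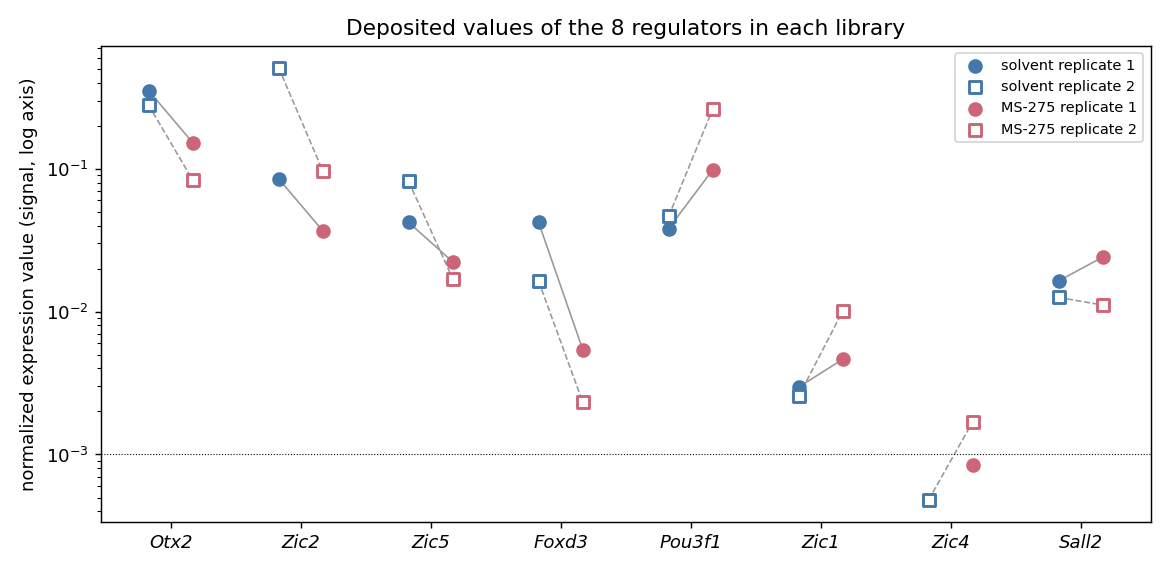
Deposited normalized value (log axis) of the 8 genes in the 4 libraries, blue for solvent and red for MS-275, filled circles for replicate 1 and open squares for replicate 2, with lines joining libraries of the same replicate number. The dotted line is the filter of 0.001. Solvent replicate 1 is not drawn for Zic4 because it was listed at 0. All lines of Otx2, Zic2, Zic5 and Foxd3 run downward, and all lines of Pou3f1 and Zic1 run upward.

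Otx2 lies on the minus strand of chromosome 14 (mm9, chr14:49277354-49287319). Its value was 0.352 and 0.279 in solvent replicates 1 and 2, and 0.152 and 0.0830 in MS-275 replicates 1 and 2. Both MS-275 libraries were lower than both solvent libraries, and the solvent mean of 0.316 ± 0.0517 (SD, n = 2) compared with an MS-275 mean of 0.117 ± 0.0487 (SD, n = 2). Otx2 was 2.32-fold lower in pair 1 and 3.36-fold lower in pair 2. On the log2(value + 0.005) scale the difference was -1.44, with an adjusted p of 0.113 in limma without the block and of 0.000259 with it. In these bulk libraries, fewer cells that express Otx2 and less Otx2 RNA per cell cannot be told apart, and the same holds for every gene below.

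The aligned reads gave a second view of Otx2. Distinct positions on its exons numbered 721 and 770 in the alignments of solvent replicates 1 and 2, and 225 and 357 in those of MS-275. Counted this way, Otx2 was lower by 1.32 on the log2 scale with the block (limma-voom, 95% interval -1.63 to -1.0, adjusted p = 7.54e-08). It also passed without the block (adjusted p = 0.00772), as did Foxd3, and these were the 2 members called lower by distinct positions without the block, where 4.92% of the 16997 genes tested were lower and 14.6% higher.

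Otx2 is annotated with several starts, and the alignments were spread unevenly over them. The first exon of the transcripts that start farthest upstream, Otx2-002 and Otx2-004 (217 bases), held 2 and 2 distinct positions with solvent and 0 and 1 with MS-275. The first exon of Otx2-001 (268 bases) held 3 and 6 with solvent and 0 and 1 with MS-275. The part of the first exon of Otx2-003 that these transcripts do not share (213 bases) held 21 and 17 with solvent and 13 and 8 with MS-275. Otx2 has 8 annotated transcripts, and those other than Otx2-001 to Otx2-004 were not compared. Over the 4 alignment sets this came to 27.7 positions per 100 bases for the Otx2-003 start, against 3.73 for Otx2-001, 2.30 for the farthest start and 1.61 in the intron between the Otx2-001 and Otx2-003 starts. The last exon held 106 per 100 bases. No test was run on single starts, which were compared after their values were seen.

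The RefSeq promoter nearest to the start with the most alignments and that of the farthest start are shown (GRCm38.p6). They matched mm9 once each at chr14:49282360-49282659 and chr14:49287270-49287569, minus strand. RefSeq's first transcribed base of the former, 49282409, lies inside the Otx2-003 exon part counted above (49282335 to 49282547). Part of that promoter is thus exon of Otx2-003. Capitals mark the CG dinucleotides, the sites of vertebrate DNA methylation, of which the first holds 11 and the second 6. Over 32851 mouse promoters of this length the median was 7 and the quartiles were 3 and 20.
Otx2, start near Otx2-003: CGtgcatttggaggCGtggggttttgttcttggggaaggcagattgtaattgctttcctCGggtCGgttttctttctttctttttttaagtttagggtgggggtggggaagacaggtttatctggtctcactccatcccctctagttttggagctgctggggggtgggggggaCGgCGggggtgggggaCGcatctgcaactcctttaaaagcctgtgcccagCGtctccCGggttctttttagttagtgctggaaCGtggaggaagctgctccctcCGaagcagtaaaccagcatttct
Otx2, farthest start: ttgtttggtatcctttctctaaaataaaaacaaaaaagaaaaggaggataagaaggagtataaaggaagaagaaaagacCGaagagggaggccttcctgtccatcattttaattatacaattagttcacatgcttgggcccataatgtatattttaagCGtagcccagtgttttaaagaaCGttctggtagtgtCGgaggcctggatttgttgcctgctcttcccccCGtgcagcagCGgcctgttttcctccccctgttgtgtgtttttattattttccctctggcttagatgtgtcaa
Both promoters thus lie near the middle of all mouse promoters in CG content, with 41.4% and 56.4% of promoters holding at least as many.

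Foxd3, a gene with 1 exon on chromosome 4 (mm9, chr4:99322990-99325362, plus strand), showed the largest fold of the members tested. Its value was 0.0422 and 0.0163 in solvent replicates 1 and 2, and 0.00540 and 0.00232 in MS-275 replicates 1 and 2. The MS-275 libraries were both below the solvent libraries, by 7.81-fold in pair 1 and 7.04-fold in pair 2. The difference on the log2(value + 0.005) scale was -1.86, which is less than these folds because the added constant is close to the MS-275 values. Foxd3 fell with the block (limma, adjusted p = 0.00041), and its adjusted p without it was 0.147. Distinct positions on its exon numbered 60 and 99 with solvent and 9 and 14 with MS-275, a log2 difference of -2.71 with the block (95% interval -3.54 to -1.88, adjusted p = 3.64e-06). With a constant of 0.02 in place of 0.005 the difference was -1.0, and with 0.001 it was -2.57. Of the 35-base stretches of its transcript, 2.31% also occur in 3 other genes.

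The Foxd3 promoter is printed because it belongs to the member that fell most and is among those richest in CG, with 25 CG dinucleotides (capitals), a number reached by 18.4% of promoters. It matched mm9 once, at chr4:99322740-99323039 on the plus strand.
Foxd3: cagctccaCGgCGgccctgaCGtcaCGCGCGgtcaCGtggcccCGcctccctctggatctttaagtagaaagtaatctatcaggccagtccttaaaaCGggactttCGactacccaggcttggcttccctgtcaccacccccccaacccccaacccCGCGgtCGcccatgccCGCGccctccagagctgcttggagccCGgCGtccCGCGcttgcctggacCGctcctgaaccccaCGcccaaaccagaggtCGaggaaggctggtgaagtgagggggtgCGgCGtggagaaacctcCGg
It holds 1 match to the palindromic E-box CACGTG, which 7.15% of all promoters contain, and on neither strand a match to the GC box GGGCGG, to CCAAT or to TATAAA.

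Zic2 and Zic5 lie head to head on chromosome 14, Zic5 on the minus strand (mm9, chr14:122856017-122864899) and Zic2 on the plus strand (mm9, chr14:122874604-122879074), with 9704 bases between their starts. The value of Zic2 was 0.0852 and 0.511 in solvent replicates 1 and 2, and 0.0368 and 0.0964 in MS-275 replicates 1 and 2. Solvent replicate 2 stood far above the other libraries, and the groups overlapped, since solvent replicate 1 was below MS-275 replicate 2. Within pairs Zic2 was 2.32-fold and 5.30-fold lower with MS-275. The log2 difference was -1.73, with an adjusted p of 0.272 without the block and of 0.000265 with it (limma). The size rests on solvent replicate 2, without which the difference was -0.47 and the adjusted p 0.999. Without solvent replicate 1 it was -2.99 and passed (adjusted p = 0.000804).

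Zic5 was also lower in both pairs, at a lower level. Its value was 0.0421 and 0.0816 in solvent replicates 1 and 2, and 0.0223 and 0.0169 in MS-275 replicates 1 and 2. Here the groups did not overlap, and Zic5 was 1.89-fold lower in pair 1 and 4.82-fold lower in pair 2. It fell with the block by 1.38 on the log2 scale (adjusted p = 0.00498) and did not pass without it (adjusted p = 0.282, limma). Without solvent replicate 2 the difference of Zic5 was -0.95, in a fit that does not keep the pairs.

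The distinct positions on Zic2 exons numbered 438 and 107 in the alignments of solvent replicates 1 and 2, and 67 and 61 in those of MS-275. Those on Zic5 exons numbered 381 and 179 with solvent, and 105 and 81 with MS-275. Both genes were thus highest in 1 alignment set, that deposited with solvent replicate 1, whereas their values were highest in solvent replicate 2. With the block, the log2 differences of the positions were -1.84 for Zic2 (adjusted p = 2.16e-06) and -1.44 for Zic5 (adjusted p = 2.63e-06, limma-voom). Without it neither passed, with adjusted p-values of 0.128 for Zic2 and 0.0548 for Zic5.

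**Figure D2:**
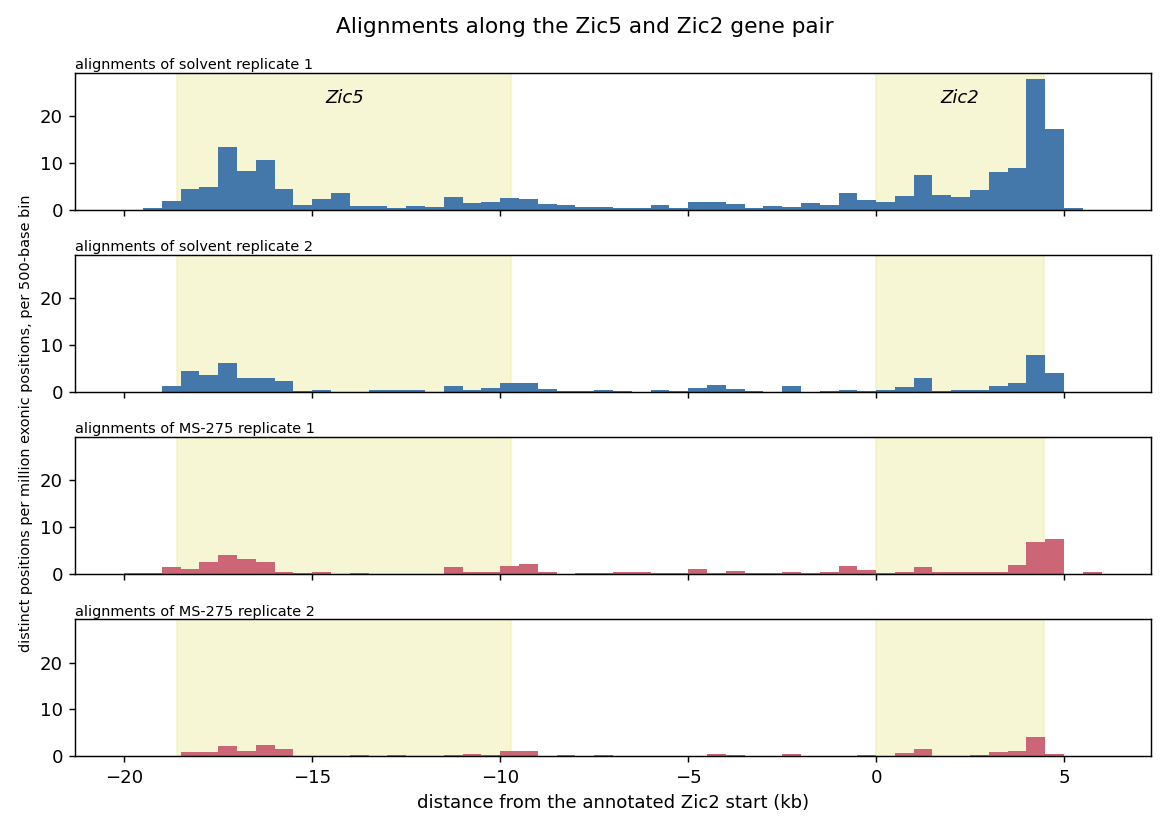
Distinct alignment positions per 1000000 exonic positions in 500-base bins along the Zic5 and Zic2 genes (shaded), against the distance from the annotated Zic2 start in kb, with 1 panel per alignment set (blue solvent, red MS-275). The set deposited with solvent replicate 1 is the highest over both genes and over the 9704 bases between them.

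The same alignment set also stood apart in the introns of Zic2-001 and Zic5-001, the first annotated transcripts. Introns of Zic2-001 held 20.1% of its exon and intron positions in that set (95% Wilson interval 16.7 to 24.1, 89 positions). The share was 6.48%, 10.4% and 6.35% in the sets of solvent replicate 2 and MS-275 replicates 1 and 2. Zic2-001 exons held 353 and 101 positions with solvent and 60 and 59 with MS-275. All annotated Zic2 exons held 438 and 107 with solvent and 67 and 61 with MS-275. Many positions counted here as intronic may thus lie on exons of other Zic2 transcripts and be in the exon counts above. For Zic5-001 the intron share was 15.8% (12.7 to 19.5, 71 positions), against 4.79%, 4.55% and 5.81%. The intron share over all genes counts exons of every annotated transcript as exon, which is a different definition. It was 29.7% and 25.2% in the sets of solvent replicates 1 and 2, and 28.7% and 24.5% in those of MS-275 replicates 1 and 2. Both sets of replicate 1 were thus above both of replicate 2. For Otx2-001 the set of solvent replicate 1 did not stand apart, with 9.10%, 7.84%, 10.3% and 5.98% in the 4 sets. Between the starts of Zic5 and Zic2, positions numbered 160 and 63 with solvent, and 60 and 33 with MS-275. The stretch past the annotated Zic2 end, in the bin that opens 4500 bases after its start, held 120 and 26 positions with solvent and 42 and 4 with MS-275, and these are not in the Zic2 exon counts. The intervals cover counting error alone.

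The Zic5 promoter is shown because most of it lies in the stretch between the starts of the gene pair. It holds 15 CG dinucleotides (capitals), which 34.6% of promoters reach, and 1 match to the GC box GGGCGG on either strand, as 35.7% of promoters have at least 1. It matched mm9 at chr14:122864831-122865130, minus strand.
Zic5: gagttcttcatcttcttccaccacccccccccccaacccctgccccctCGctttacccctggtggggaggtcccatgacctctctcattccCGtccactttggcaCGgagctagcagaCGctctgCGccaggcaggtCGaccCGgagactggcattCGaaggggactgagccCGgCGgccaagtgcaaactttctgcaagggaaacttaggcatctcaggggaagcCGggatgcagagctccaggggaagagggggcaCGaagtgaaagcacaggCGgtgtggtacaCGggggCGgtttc
Its CG count lies above the median of all promoters and below their upper quartile.

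Zic1 and Zic4 are a second head to head pair of the family, on chromosome 9 (mm9, chr9:91252896-91260648 on the minus strand and chr9:91257251-91284186 on the plus strand), and their annotated genes overlap by 3398 bases. The value of Zic1 was 0.00296 and 0.00255 in solvent replicates 1 and 2, and 0.00464 and 0.0101 in MS-275 replicates 1 and 2. Both MS-275 libraries were above both solvent libraries, at values near the filter of 0.001. The log2 difference was 0.64, with an adjusted p of 0.418 without the block and of 0.0887 with it (limma), so Zic1 did not pass by value. The size of this difference moved with the scaling, to 0.21 with quantile normalization, and with the added constant, to 0.26 with 0.02 and 1.08 with 0.001. Distinct positions on its exons numbered 13 and 10 with solvent and 54 and 18 with MS-275. By these it passed with the block (log2 difference 1.70, 95% interval 0.77 to 2.63, adjusted p = 0.00312, limma-voom) and did not without it (adjusted p = 0.249). Position counts with the block called 29.8% of the genes tested as higher and 14.0% as lower. They called 2 members higher (Pou3f1 and Zic1) and 4 lower (Otx2, Zic2, Zic5 and Foxd3).

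Zic4 was listed at 0 in solvent replicate 1 and at 0.000480 in solvent replicate 2, and at 0.000840 and 0.00170 in MS-275 replicates 1 and 2. It was the 1 member that did not reach 0.001 in 2 libraries, and it was not tested. Its exons held 0 and 0 positions with solvent and 3 and 2 with MS-275. On the exons of Zic4-001, a count of 0 allows up to 0.171 and 0.179 positions per kb and 1000000 exonic positions in the sets of solvent replicates 1 and 2, and up to 0.211 in the set of MS-275 replicate 1, while that of MS-275 replicate 2 held 1 position. Zic4 was thus not detectable on these exons in 3 of the 4 sets at this depth, and no difference between the groups can be read from them. The stretch shared with Zic1 held 4 and 2 positions with solvent and 17 and 9 with MS-275. The strand of an alignment was not used to assign it to a gene, so positions on this stretch were not told apart between the genes.

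The Zic1 promoter is printed as the most CG-rich of the members' promoters in the table, with 31 CG dinucleotides (capitals), a number that 10.6% of promoters reach. The table gave promoters for 6 of the 8 members, 10 in all. It matched mm9 at chr9:91260557-91260856, minus strand.
Zic1: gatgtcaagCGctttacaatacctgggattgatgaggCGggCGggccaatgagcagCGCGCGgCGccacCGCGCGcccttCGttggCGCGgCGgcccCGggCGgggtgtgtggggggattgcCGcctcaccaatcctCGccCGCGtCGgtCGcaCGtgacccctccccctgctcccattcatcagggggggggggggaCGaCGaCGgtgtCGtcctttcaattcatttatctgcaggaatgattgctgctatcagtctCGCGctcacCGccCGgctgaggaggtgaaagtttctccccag
It holds 3 matches to the GC box GGGCGG, 2 to CCAAT and 1 to CACGTG over both strands. GGGCGG and CCAAT occur in 35.7% and 37.4% of all promoters.

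Levels can be set side by side per kb of exon, using the distinct positions on the first annotated transcript of each gene per kb and 1000000 exonic positions. On this scale Zic2 stood at 20.9 and 6.27 in the sets of solvent replicates 1 and 2 and at 4.38 and 3.28 in those of MS-275, and Zic5 at 11.5 and 5.68 and then 3.92 and 2.31. Zic1 reached 0.335 and 0.270 with solvent and 1.71 and 0.436 with MS-275. The summed level of Zic1, Zic2, Zic4 and Zic5 was 32.7 and 12.2 with solvent and 10.01 and 6.08 with MS-275. Both MS-275 sets were below both solvent sets. The share of Zic2 in that sum was 63.8% and 51.3% with solvent and 43.8% and 54.0% with MS-275, and the groups overlapped. The share of Zic1 was 1.02% and 2.21% with solvent and 17.1% and 7.17% with MS-275, and the groups did not overlap.

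**Figure D3:**
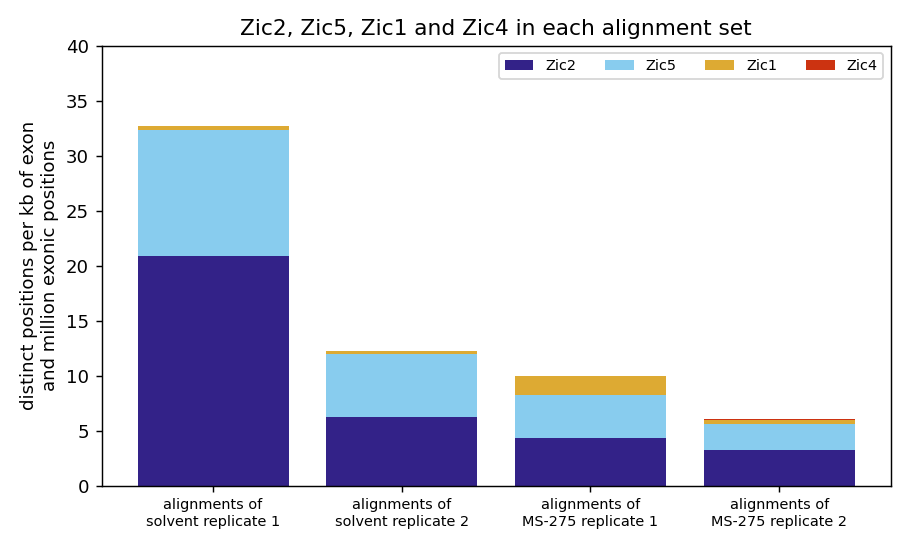
Stacked levels of Zic2, Zic5, Zic1 and Zic4 in the 4 alignment sets, as distinct positions per kb of exon and 1000000 exonic positions. The bars of solvent reach 32.7 and 12.2 and those of MS-275 reach 10.01 and 6.08, and Zic2 is the largest segment of each bar.

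Among the 8 members, Otx2 was the highest with solvent on the per kb scale, at 43.6 and 49.1 positions on this scale, above every other member in both sets. Zic2, Zic5, Pou3f1 (6.45 and 3.68) and Foxd3 (3.65 and 6.32) followed, and the sets of neighbours in that order overlapped. Sall2 (3.09 and 2.17) was below these in both sets, and Zic1 and Zic4 were lowest. With MS-275, Pou3f1 (22.3 and 9.94) and Otx2 (16.2 and 20.6) overlapped at the top. Foxd3 (0.675 and 0.800) was then below Sall2 (2.94 and 3.24) in both sets.

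Pou3f1, a gene with 1 exon on chromosome 4 (mm9, chr4:124334896-124337899, plus strand), was the member that rose. Its value was 0.0381 and 0.0463 in solvent replicates 1 and 2, and 0.0984 and 0.262 in MS-275 replicates 1 and 2. Both MS-275 libraries were above both solvent libraries, with a wider spread between them (mean 0.180 ± 0.116, SD, n = 2) than between the solvent libraries (0.0422 ± 0.00579, SD, n = 2). Pou3f1 rose by 1.82 on the log2 scale with the block (limma, 95% interval 1.24 to 2.41, adjusted p = 0.000185) and did not pass without it (adjusted p = 0.111). Distinct positions on its exon numbered 134 and 73 with solvent and 377 and 220 with MS-275. Their log2 difference was 1.64 with the block (adjusted p = 2.71e-07, limma-voom), and the adjusted p without the block was 0.0579. With MS-275 replicate 2 left out, in a fit that does not keep the pairs, the difference of the values was 1.14. Over the alternatives with the block it was 1.52 to 2.12.

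Sall2, on the minus strand of chromosome 14 (mm9, chr14:52930847-52948437), did not pass in any fit. Its value was 0.0164 and 0.0126 in solvent replicates 1 and 2, and 0.0241 and 0.0111 in MS-275 replicates 1 and 2. The highest and the lowest of these were both MS-275 libraries. The log2 difference with the block was 0.16 (95% interval -0.51 to 0.83, adjusted p = 0.748, limma), and its sign turned under other scalings, to -0.37 with quantile normalization and -0.06 with median-ratio scaling. Distinct positions numbered 114 and 75 with solvent and 86 and 123 with MS-275 (log2 difference 0.22 with the block, 95% interval -0.28 to 0.72).

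Nearly all Sall2 positions lay on the exon that its annotated starts share, with 110 and 74 with solvent and 84 and 123 with MS-275. The first exon of Sall2-001 held 0, 0, 1 and 0 positions in the 4 sets, and that of the other start, Sall2-002, held 4, 1, 1 and 0. The starts were not compared on these counts. The promoters are shown because they differ in CG content, with 1 CG dinucleotide (capitals) at the Sall2-001 side (mm9, chr14:52948296-52948595) and 10 at the other (mm9, chr14:52935949-52936248), both on the minus strand.
Sall2, start near Sall2-001: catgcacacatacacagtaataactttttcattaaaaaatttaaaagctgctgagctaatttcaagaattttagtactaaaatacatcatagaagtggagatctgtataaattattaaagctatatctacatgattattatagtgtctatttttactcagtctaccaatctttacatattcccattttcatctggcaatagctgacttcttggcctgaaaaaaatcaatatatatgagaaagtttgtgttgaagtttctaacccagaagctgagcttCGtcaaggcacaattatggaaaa
Sall2, start near Sall2-002: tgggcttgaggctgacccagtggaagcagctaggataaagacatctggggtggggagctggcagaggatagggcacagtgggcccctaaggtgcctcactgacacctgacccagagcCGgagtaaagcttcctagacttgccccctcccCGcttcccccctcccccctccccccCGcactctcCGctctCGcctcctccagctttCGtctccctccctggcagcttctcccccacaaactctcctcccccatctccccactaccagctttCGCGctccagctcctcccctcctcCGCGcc
At least 1 CG dinucleotide is found in 94.6% of all promoters and at least 10 in 43.5%.

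**Figure D4:**
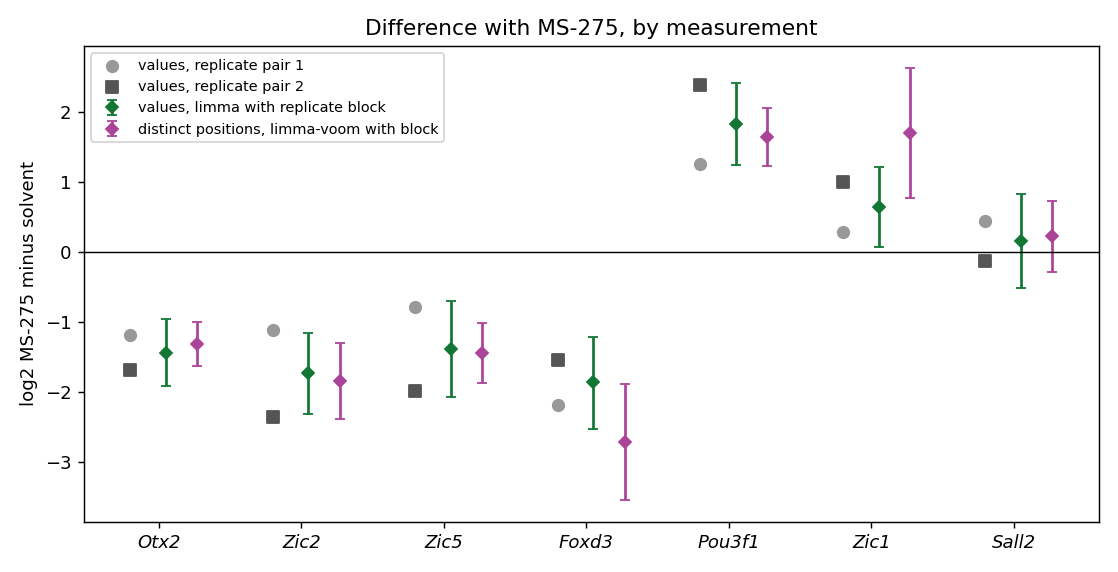
Log2 difference of MS-275 minus solvent for the 7 members tested, as the difference in each replicate pair of values (grey circles and squares), the limma estimate with the replicate block on values (green) and the limma-voom estimate with the block on distinct positions (purple), with 95% intervals. The intervals of Otx2, Zic2, Zic5 and Foxd3 lie below 0 and those of Pou3f1 and Zic1 lie above 0 in both measurements, although Zic1 did not pass by value after adjustment, while those of Sall2 span 0.

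Differences between the pairs were larger for some members than for others. The log2 difference was -0.79 in pair 1 and -1.98 in pair 2 for Zic5, and -1.11 and -2.35 for Zic2. It was -1.19 and -1.69 for Otx2 and 1.26 and 2.38 for Pou3f1. Foxd3 went the other way round, with -2.18 in pair 1 and -1.54 in pair 2. The scale of the deposited values also differed by replicate number. Summed over all genes listed, they came to 2490 and 3629 in solvent replicates 1 and 2, and to 2493 and 4359 in MS-275 replicates 1 and 2. The part of this scale in the differences between the pairs was not tested. Over the 20336 genes, 50.0% were higher in both pairs and 26.5% lower in both, and of the 7 members 2 were higher and 4 lower in both. Both MS-275 values were above both solvent values for Pou3f1 and Zic1 and below them for Otx2, Zic5 and Foxd3, against 32.3% of all genes above and 12.0% below. The median log2 difference was -1.38 over the 7 members and 0.20 over all genes. Quantile normalization and median-ratio scaling moved the all-gene median to -0.03 and -0.01 and, with the block, the calls over all genes from 4277 higher and 1314 lower to 2936 and 2961, and to 3344 and 2806. Under both, the block called Pou3f1 higher and Otx2, Zic2, Zic5 and Foxd3 lower, against 14.4% of all genes higher and 14.6% lower with quantile normalization and 16.4% and 13.8% with median-ratio scaling. Counts of all alignments with the block called 2 members higher and 4 lower, against 26.1% and 10.1% of the genes tested.

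The genes whose values were most like those of Otx2 over the 4 libraries were H60b, a ligand of a natural killer cell receptor, Bcat2, the mitochondrial branched-chain aminotransferase, and Dlg5, a scaffold protein of cell junctions. Their distances from Otx2 on centred log2 values were 0.0479, 0.0644 and 0.0944. H60b, Bcat2 and Dlg5 fell with the block (limma, adjusted p = 0.00133, 0.000325 and 0.000804) and did not pass without it (0.227, 0.117 and 0.176). The value of Bcat2 was 0.260 and 0.209 with solvent and 0.113 and 0.0642 with MS-275. Among the members, Foxd3 (0.752, rank 680 of 20335 genes) and Zic5 (0.931, rank 1292) were nearest to Otx2, and Zic2 (2.52, rank 16830) and Pou3f1 (3.64, rank 19630) were far from it.

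Other genes were followed in lists of the members' surroundings. Over all genes tested, 21.0% rose and 6.46% fell with the block, and the median log2 difference was 0.20. Of the paralogs of the members, 11 genes of which 9 were tested, 4 rose and 1 fell with the block, and the median log2 difference was 0.49. The one that fell was Sall1, a spalt factor with values of 0.428 and 0.274 with solvent and 0.110 and 0.0210 with MS-275 (log2 difference -2.67, adjusted p = 1.32e-05). Sall4, a spalt factor of the pluripotency network, differed by -0.49 and did not pass (adjusted p = 0.163). Those that rose had low values, among them Pou3f3, 0.00133 and 0.00223 with solvent and 0.0120 and 0.0170 with MS-275 (1.51, adjusted p = 0.000702), and Foxd1 (1.20, adjusted p = 0.00613). Without the block, the adjusted p-values of Sall1, Pou3f3 and Foxd1 were 0.076, 0.0904 and 0.246 (limma). Pou3f2, Pou3f4 and Foxd2 reached the filter of 0.001 through the MS-275 libraries alone, so they could only be higher. Pou3f2 was among the paralogs that rose, and Pou3f4 held the median. When paralogs with a mean value under 0.01 were left out, Sall1 and Sall4 remained, with a median of -1.58.

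The list of formative and primed epiblast genes was not uniform. Of 27 tested, 11 rose and 3 fell with the block, with a median of 0.45, against 21.0% and 6.46% of all genes. The T-box gene T, a marker of the primitive streak, rose from 0.00699 and 0.00354 with solvent to 0.0466 and 0.0222 with MS-275 (log2 difference 1.89, adjusted p = 0.000374), and Dkk1, a secreted Wnt inhibitor, rose by 1.81 (adjusted p = 0.000278). Etv5, an ETS factor downstream of FGF signalling, fell by 0.83 (adjusted p = 0.0186), while Tdgf1, a Nodal co-receptor, differed by -0.80 and did not pass (adjusted p = 0.0945). Without the block, the adjusted p-values of T, Dkk1 and Etv5 were 0.152, 0.0912 and 0.458 (limma).

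Of the 15 naive pluripotency genes 1 rose and 8 fell with the block, with a median of -1.02. Over all genes, 21.0% rose and 6.46% fell. Prdm14, a repressor of differentiation genes, had values of 0.260 and 0.0840 with solvent and 0.0392 and 0.00713 with MS-275 (log2 difference -2.73, adjusted p = 4.8e-06), and Nr0b1, a nuclear receptor, fell by 2.43 (adjusted p = 9.11e-05). The gene that rose was Dppa3, a maternal factor (2.88, adjusted p = 3.73e-05), and Gbx2 differed by 0.47 (adjusted p = 0.169). Without the block, the adjusted p-values of Prdm14, Nr0b1 and Dppa3 were 0.0991, 0.0713 and 0.0855 (limma). Of 6 general pluripotency genes 3 fell and 0 rose (median -0.76), among them L1td1 (-1.52, adjusted p = 0.00259) and Utf1 (-1.45, adjusted p = 0.00402), while Trim28 differed by 0.26 (adjusted p = 0.69). L1td1 and Utf1 had adjusted p-values of 0.224 and 0.183 without the block. Of the ESC markers, Esrrb fell by 1.34 (adjusted p = 0.00844) and Pou5f1 by 0.95 (adjusted p = 0.0473) with the block. Without it their adjusted p-values were 0.322 and 0.661 (limma). Sox2, Nanog and Zfp42 did not pass with the block (adjusted p = 0.6, 0.679 and 0.268, limma). The median of the general pluripotency genes ranged from -1.48 when solvent replicate 1 was left out to -0.10 when solvent replicate 2 was. In limma without the block, 0 genes of any of the lists read here passed, where 1 of all genes did.

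Of 12 genes of the machinery that takes ESCs out of naive pluripotency, 1 rose and 2 fell (median -0.22). Over all genes, 21.0% rose and 6.46% fell. The co-repressor Ctbp2 fell by 1.33 (adjusted p = 0.00696) and Rbpj, the DNA-binding partner of Notch, by 0.68 (adjusted p = 0.032). The demethylase Kdm6b rose by 0.86 (adjusted p = 0.0116), and Jarid2 differed by 0.39 (adjusted p = 0.356). Ctbp2, Rbpj and Kdm6b had adjusted p-values of 0.252, 0.454 and 0.5 without the block.

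Genes of the neural tissues in which the members act later were also read. Of 11 anterior neural genes tested, 2 rose and 1 fell with the block (median 0.36), against 21.0% and 6.46% of all genes. En2, a homeobox gene of the midbrain and hindbrain, rose by 2.78 (adjusted p = 4.14e-06) and Lhx5, a LIM homeobox gene listed at 0 in solvent replicate 1, by 0.70 (adjusted p = 0.0247). Lhx5, Six3 and En1 reached the filter through the MS-275 libraries alone, so they could only be higher, and En1 held the median. Sox1 fell by 1.16 (adjusted p = 0.012), and Pax6 differed by -0.14 (adjusted p = 0.77). Of 10 genes of neural crest and dorsal neural tube, 6 rose and 0 fell (median 1.05), against 21.0% and 6.46% of all genes. Msx1 (2.22, adjusted p = 4.13e-05) and Snai2 (2.09, adjusted p = 9.11e-05) rose most, while Foxd3, a member known from the same tissue, fell. Of the 10, 9 were higher in both pairs, as were 50.0% of all genes. Pax3, among these, reached the filter through the MS-275 libraries alone and could only be higher. Without the block, the adjusted p-values were 0.0581 for En2, 0.152 for Lhx5, 0.352 for Sox1, 0.0612 for Msx1 and 0.111 for Snai2.

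Markers of fibroblasts, the feeder cells on which this line depends, moved in the same libraries. Of 12, 5 rose and 0 fell with the block (median 0.33), against 21.0% and 6.46% of all genes. Col1a1 (2.41, adjusted p = 5.6e-05) and Pdgfrb (1.20, adjusted p = 0.00704) were at one end. Dcn (-0.72, adjusted p = 0.0728) and Col3a1 (-0.52, adjusted p = 0.206) were at the other. Col1a1 and Pdgfrb had adjusted p-values of 0.0814 and 0.386 without the block. Their summed value was 0.525 and 0.692 with solvent and 0.797 and 1.02 with MS-275, and 0 of the 12 were listed at 0 in any library. Without solvent replicate 2 their median was 0.53. Their part in the differences of the members was not tested. With quantile normalization the median was 0.09 for the formative and primed genes, 0.02 for the anterior neural genes, 0.59 for neural crest and 0.07 for the fibroblast markers.

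**Figure D5:**
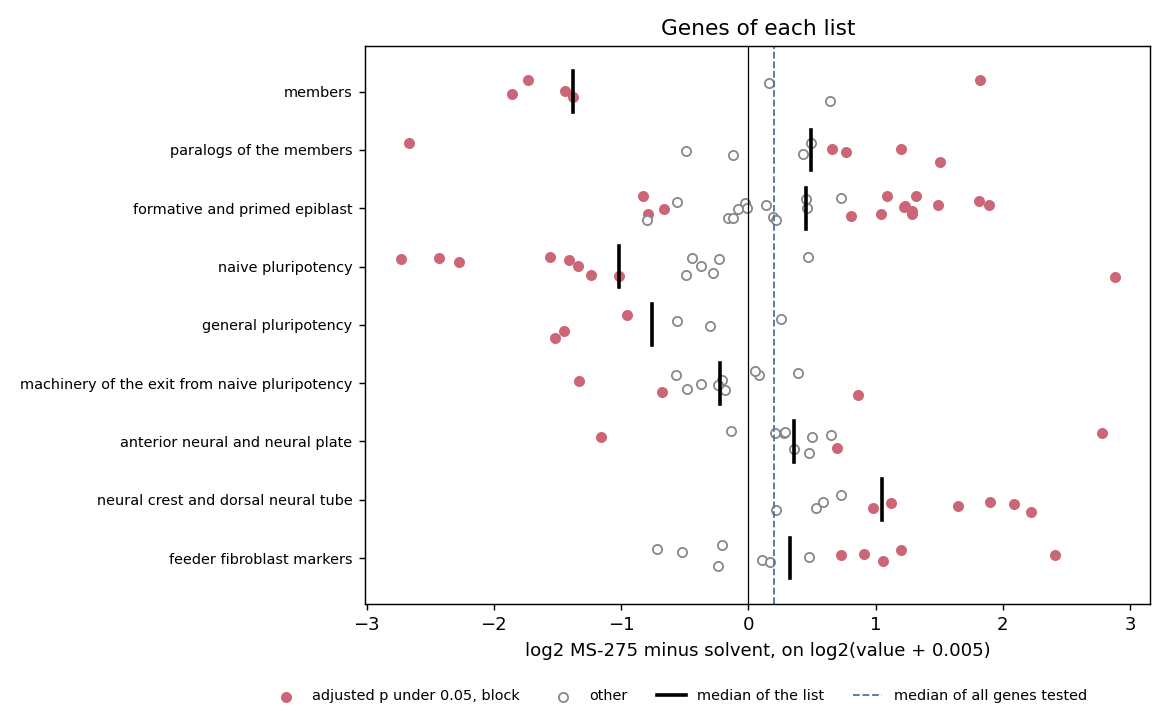
Log2 difference of MS-275 minus solvent of each tested gene, on log2(value + 0.005), for the 7 members tested and the 8 other lists, with filled points for an adjusted p under 0.05 in the fit with the replicate block, a black bar for each list's median and a dashed line for the median of all genes tested (0.20). The medians run from -1.38 for the members to 1.05 for neural crest and dorsal neural tube genes.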

How the data were processed

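Per the labels and the study's methods, poly(A) RNA was sequenced on a GAIIx and mapped to mm9. The authors deposited, for each library, a normalized expression signal per gene (Genomatix) and the alignments, whose score column was not used. Tables of the authors' own ratios between libraries were not used. Positions come from GENCODE M1 on mm9.

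Genes at 0.001 or more in at least 2 libraries were kept and limma 3.58.1 (R 4.3.3, lmFit and eBayes with a trend) was fitted to log2(value + 0.005), with Benjamini-Hochberg adjustment over 20336 genes. The study names no test. With 2 libraries per group an exact permutation test cannot reach the threshold. Fold changes on this scale understate those of low genes. The replicate pairing comes from the authors' headers, and deviations from the group means correlated at 0.764 between libraries of the same number over 20336 genes. The summed values also split by replicate number, so this correlation cannot tell paired cultures from shared processing. Values with and without the block are given for each named gene whose call it changes.

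Distinct alignment positions (chromosome, start and strand) were assigned by the middle of the alignment to exons of 1 gene, leaving out those on several, and genes with at least 10 in 2 libraries were tested with limma-voom. Repeats of a position made up 53.24%, 0%, 54.41% and 0% of the alignments of solvent replicates 1 and 2 and MS-275 replicates 1 and 2. The steps were tested on simulated data. Python 3.11.15, pandas 2.3.3, numpy 2.4.6, scipy 1.17.1 and matplotlib 3.10.9 were used.

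The members and lists were chosen with earlier results of these data known, so their counts are descriptions. Genes that are not reported here were left out of the lists. Named genes are the members, the 2 largest rises and 2 largest falls of each list (fewer where fewer tested genes had that sign), the ESC markers, and the 3 genes most like the member with the highest mean value by Euclidean distance. Motifs were searched on both strands. The vehicle of the controls is named differently in the sources used here and is called solvent.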

Additional observations from a re-analysis of the deposited data

How the results depend on the processing

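Calls of the members depended on the replicate block. With it, 1 member was called higher and 4 lower on the values as deposited, with quantile normalization, with median-ratio scaling and with constants of 0.001 and 0.02, and 2 higher and 4 lower by distinct positions and by all alignments. Of all 20336 genes, 4216 were higher and 1220 lower with the block and a constant of 0.001, and 3790 and 1158 with 0.02. Without it, distinct positions called 0 higher and 2 lower, and every other alternative with 4 libraries called 0 and 0, against 3.16% and 0.441% of genes with a mean value of at least 0.01 and 2.45% and 0.116% by all alignments. Calls with 1 library left out are not given, since a group then held a lone library and the pairs were not kept. The block changed no call of Zic1 or Sall2 on the values.

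For Otx2 the log2 difference passed at -1.44 with the replicate block, -1.55 with block and quantile normalization, -1.72 with block and median-ratio scaling, -1.47 with block and a constant of 0.001, -1.33 with block and a constant of 0.02, -1.31 by distinct positions without block, -1.32 by distinct positions with block, -1.45 by all alignments with block, and with 1 library left out it ranged from -1.86 to -1.02. For Pou3f1 the log2 difference passed at 1.82 with the replicate block, 1.52 with block and quantile normalization, 1.55 with block and median-ratio scaling, 1.91 with block and a constant of 0.001, 1.56 with block and a constant of 0.02, 1.64 by distinct positions with block, 2.12 by all alignments with block, and with 1 library left out it ranged from 1.14 to 2.51. For Zic1 the log2 difference passed at 1.70 by distinct positions with block, 1.66 by all alignments with block, and with 1 library left out it ranged from 0.31 to 0.96. For Zic2 the log2 difference passed at -1.73 with the replicate block, -1.73 with block and quantile normalization, -1.99 with block and median-ratio scaling, -1.79 with block and a constant of 0.001, -1.54 with block and a constant of 0.02, -1.84 by distinct positions with block, -2.12 by all alignments with block, and with 1 library left out it ranged from -2.99 to -0.47. For Zic5 the log2 difference passed at -1.38 with the replicate block, -1.74 with block and quantile normalization, -1.64 with block and median-ratio scaling, -1.55 with block and a constant of 0.001, -1.01 with block and a constant of 0.02, -1.44 by distinct positions with block, -1.77 by all alignments with block, and with 1 library left out it ranged from -1.82 to -0.95. For Foxd3 the log2 difference passed at -1.86 with the replicate block, -2.26 with block and quantile normalization, -2.04 with block and median-ratio scaling, -2.57 with block and a constant of 0.001, -1.0 with block and a constant of 0.02, -2.64 by distinct positions without block, -2.71 by distinct positions with block, -2.84 by all alignments with block, and with 1 library left out it ranged from -2.44 to -1.29. Sall2 changed sign at -0.37 with quantile normalization, -0.06 with median-ratio scaling, -0.37 with block and quantile normalization, -0.06 with block and median-ratio scaling, and with 1 library left out it ranged from -0.27 to 0.59.

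The median of paralogs of the members was 1.47 with a constant of 0.001, -1.58 for mean values of at least 0.01, 1.47 with block and a constant of 0.001, and 0.43 to 0.55 with 1 library left out. The median of formative and primed epiblast was 0.09 with quantile normalization, 0.09 with block and quantile normalization and 0.33 to 0.61 with 1 library left out. The median of naive pluripotency was -1.30 with median-ratio scaling, -1.30 with block and median-ratio scaling, -0.73 by distinct positions without block, -0.74 by distinct positions with block and -1.30 to -0.83 with 1 library left out. The median of general pluripotency was -1.48 to -0.10 with 1 library left out. The median of machinery of the exit from naive pluripotency was -0.50 with median-ratio scaling, -0.50 with block and median-ratio scaling and -0.30 to -0.16 with 1 library left out. The median of anterior neural and neural plate was 0.95 with a constant of 0.001, 0.17 with a constant of 0.02, 0.08 for mean values of at least 0.01, 0.02 with quantile normalization, 0.02 with block and quantile normalization, 0.95 with block and a constant of 0.001, 0.17 with block and a constant of 0.02, 0.52 by distinct positions without block, 0.54 by distinct positions with block, 0.58 by all alignments without block, 0.56 by all alignments with block and 0.38 to 0.43 with 1 library left out. The median of neural crest and dorsal neural tube was 1.80 with a constant of 0.001, 0.52 with a constant of 0.02, 1.78 for mean values of at least 0.01, 0.59 with quantile normalization, 0.59 with block and quantile normalization, 1.80 with block and a constant of 0.001, 0.52 with block and a constant of 0.02, 1.91 by distinct positions without block, 1.91 by distinct positions with block, 2.03 by all alignments without block, 2.02 by all alignments with block and 1.07 to 1.23 with 1 library left out. The median of feeder fibroblast markers was 0.07 with quantile normalization, 0.07 with block and quantile normalization and 0.42 to 0.53 with 1 library left out. Zic1 did not pass at 0.21 with quantile normalization, 0.52 with median-ratio scaling, 0.26 with a constant of 0.02 and 1.08 with 0.001, each with and without the block. With 1 library left out, a group holds a lone library that is assumed to vary like the other group. Such fits had no block, so their differences mix replicate number with treatment. The signs of Otx2, Pou3f1, Zic1, Zic2, Zic5 and Foxd3 were the same under every alternative run, and other medians moved by less than the spread between replicates. Each cause was not tested. All-alignment counts without a block were added after the data were seen.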
